A study of Homo sapiens with 24 samples.

Results

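The mitochondrial ribosomal protein genes were taken as every protein-coding gene of the GENCODE 29 annotation whose symbol is MRPL or MRPS followed by a number, together with DAP3, a small-subunit protein with a name of its own. This gave 79 genes, 49 of the large subunit (MRPL) and 30 of the small subunit (MRPS and DAP3), of 19940 protein-coding genes and 58721 gene IDs in the count files. They were followed through RNA-seq libraries made from total RNA in a study of ZFX, a zinc finger transcription factor that binds promoters. The study comprised 24 libraries in 8 groups of 3. LN-229, a human glioblastoma cell line with the genotype given as wild type, was treated with control siRNA (siControl), siRNA against ZFX (siZFX) or siRNA against ZNF593 (siZNF593), a zinc finger protein gene. A second set of control libraries (siControl_2, with the same treatment label as siControl) stood beside the combined knockdown, siZFX siZNF593. 293T cells, a human embryonic kidney line, carried a knockout of both ZFX and ZNF711, a close relative of ZFX, in every group used here. These double knockout (DKO) cells were given either vector alone (pCMV6), wild-type ZFX with a FLAG tag (wtZFX), or ZFX12_13, a construct whose treatment label reads ZFX FLAG and whose alteration the labels do not spell out. The labels do not say whether the knockout line is 1 clone or whether libraries of a group came from separate cultures, so each p-value measures the spread between these libraries, which may be technical.

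Mitochondria make a handful of respiratory chain subunits on ribosomes of their own. The ribosomal RNAs of these particles are encoded in the mitochondrial genome, but all of their proteins are encoded in the nucleus, made in the cytosol and imported. The large subunit holds the peptidyl transferase centre and the exit tunnel, and it is attached to the inner membrane; the small subunit reads the mRNA. Many of the proteins have bacterial relatives and many others are found only in mitochondrial ribosomes. Symbols do not always give the position: the MRPS30 and MRPS18A proteins sit in the large subunit, and MRPS36 is now regarded as a component of the 2-oxoglutarate dehydrogenase complex. Promoters of nuclear genes for mitochondrial proteins are known for sites of ETS factors such as GABP, of NRF1 and of YY1.

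RefSeq start regions (250 bases before to 50 after a transcript start, GRCh38.p14) were found for 70 of the 79 genes and were read for short motifs on both strands. The ETS motif CCGGAAG was present in 30 of 70 (42.9%), against 16.7% of all protein-coding genes with such a region. The YY1 motif AAGATGGCG was present in 13 (18.6%), against 3.32%. In 10 of these 13 genes the YY1 match began at or after the start and read along the gene, as it did in 307 of the 494 protein-coding genes that held it. The ETS match lay within the last 60 bases before the start in 21 of 30 genes, against 47.2% of all protein-coding genes with the motif. The core of the ZFX motif, AGGCCT, was found in 10 (14.3%), against 13.9%, and the NRF1 palindrome CGCATGCG in 3 (4.29%), against 3.30%. A looser NRF1 form, CGCANGCG, of which the palindrome is a case, was found in 15 (21.4%), against 16.9%. Matches are descriptions of letters and not of binding. The stretches below belong to genes whose changes the results turn on and show the 3 motifs in place, with the motif named for each in capitals and all sequences written along the gene.
MRPS26, ETS, reverse complement (chr20:3046002-3046031, plus strand): gttccccgcgccgCTTCCGGggcacggtgg
MRPS34, ETS, reverse complement at all 3 places (chr16:1773135-1773254, minus strand): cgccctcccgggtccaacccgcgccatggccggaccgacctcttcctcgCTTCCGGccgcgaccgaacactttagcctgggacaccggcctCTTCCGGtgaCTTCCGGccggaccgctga
MRPL54, ETS, reverse complement (chr19:3762562-3762681, plus strand): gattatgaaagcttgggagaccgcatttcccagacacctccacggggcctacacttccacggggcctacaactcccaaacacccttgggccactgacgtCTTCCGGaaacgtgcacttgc
MRPL58, ETS on both strands and the ZFX core (chr17:75012460-75012669, plus strand): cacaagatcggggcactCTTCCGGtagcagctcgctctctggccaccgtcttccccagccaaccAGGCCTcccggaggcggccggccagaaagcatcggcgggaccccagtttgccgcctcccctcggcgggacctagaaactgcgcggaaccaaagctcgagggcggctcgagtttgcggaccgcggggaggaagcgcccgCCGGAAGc
MRPS33, ZFX core (chr7:141015066-141015095, minus strand): ggtacacctcggAGGCCTcaggagggggag
MRPL36, YY1, reverse complement (chr5:1799855-1799884, minus strand): cccccccccgcCGCCATCTTccttcctggc
MRPS18B, YY1, just after the start (chr6:30617852-30617881, plus strand): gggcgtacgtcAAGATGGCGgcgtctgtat

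Gene counts ran from 16774179 to 30159260 per library in LN-229 and from 16223239 to 24272308 in the DKO cells, of which 57715 to 122112 and 65448 to 101316 fell on the 79 genes. Levels are CPM (counts scaled to the library total) scaled within each cell line, ± is the SD over n = 3 libraries, and a gene is called where its edgeR adjusted p, over all genes tested, is under 0.05. ZFX went from 50.5 ± 4.73 to 16 ± 3.52 CPM with siZFX (-1.66 on the log2 scale with an SE of 0.13, adjusted p = 1.1e-09) and from 53.6 ± 4.14 to 26.7 ± 2.33 CPM in the combined knockdown. ZNF593 lies under another gene on the opposite strand and got no unstranded counts; summed over both strands it had 34 CPM in siControl, 2.34 with siZNF593 and 3.21 in the combined knockdown. In the DKO cells ZFX went from 224 ± 10.2 to 15534 ± 1235 CPM with wtZFX, and ZNF711 had 306 ± 6.44 CPM in pCMV6 and 263 ± 13.3 with wtZFX; counts over a whole gene do not show whether a small edit is present. The LN-229 libraries had the glioblastoma markers SOX10 (648 to 1362 CPM) and CD44 (403 to 901) with GFAP at 1.43 to 8.77 CPM, the DKO libraries had LIN28B (78.1 to 106 CPM), and of 5 markers of other cells PTPRC, PECAM1, CDH5 and ALB had at most 1.02 CPM in any library, while EPCAM had at most 0.0443 CPM in LN-229 and 1.97 to 6.03 in the DKO cells. All 79 genes were tested in LN-229 and 78 in the DKO cells, where MRPS24 did not pass the count filter. Reads were counted without strand and reads meeting 2 genes were left out. Genes that share exon bases with another gene therefore have lowered and less certain values. Of the 79 genes, 39 share under 1%. Genes named below that share more include MRPS18A (47%), MRPS25 (22.2%), MRPL33 (21.05%), MRPS12 (16.3%), MRPS2 (14.4%), MRPS14 (13.5%), MRPL44 (12.9%) and MRPS9 (8.88%). Summed over both strands, MRPS18C had 13.7 times its unstranded counts, MRPS18A 2.80, MRPL4 2.65 and MRPS2 2.62 times, the highest ratios among the 79 genes. Lowest and highest correlations of log CPM between libraries of a group were 0.994 and 0.995 in siControl but 0.982 and 0.993 in the combined knockdown, whose replicate 3 stood apart.

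Per kilobase of exon, MRPS34, a small-subunit protein gene without a bacterial relative, had the highest level in both lines, with a mean of 107 CPM per kb in LN-229 and 146 in the DKO cells. In LN-229 it was followed by MRPS21 (72.2), MRPL51 (64.4, sharing 31.3% of its exon bases), MRPS26 (61.8) and MRPL37 (56.1, sharing 6.79%). Ranges over the 15 libraries of these neighbours overlapped, from 57.4 to 92.8 CPM per kb for MRPS21 to 45 to 70.8 for MRPL37. In the DKO cells MRPL37 (141 CPM per kb), MRPL3 (53.2), MRPS26 (50.3) and MRPS16 (50.2) came next. The ranges of MRPS34 (129 to 167) and MRPL37 (132 to 154) overlapped there, and both lay above the range of MRPL3 (49.2 to 59.97). The lowest levels were those of MRPS24, MRPL46, MRPS18C, MRPS28 and MRPL38 in both lines, at 0.426 to 0.962 CPM per kb in LN-229, and each of them shares 11.3% to 41.1% of its exon bases with another gene. The median gene had 18 CPM per kb in LN-229 and 16.2 in the DKO cells.

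The order of the genes was similar in the 2 lines (Spearman 0.85 across the 79 genes, which are not independent replicates and share exon length), although line, genotype and treatment differ together and cannot be told apart. For 52 genes the ranges of CPM in the LN-229 and DKO libraries overlapped; 12 genes lay wholly higher in LN-229 and 15 wholly higher in the DKO cells. Of the 78 genes tested in both lines these were 11 and 15, where 14.6% and 36.2% of all 15973 such genes lay apart in the same way. MRPS6, which encodes the counterpart of a bacterial small-subunit protein, differed most, with 81.6 to 185 CPM in LN-229 and 6.21 to 12.3 in the DKO cells, a ratio of means of 13. MRPL28, MRPS25 and MRPL37 were 3.17, 3.0 and 2.51 times as high in the DKO cells. The lines were scaled separately, so these ratios are descriptions without a test. Within LN-229 the highest group mean was typically 1.40 times the lowest (median over genes), and within the DKO cells 1.14 times. The ratio was taken over 5 group means in LN-229 and 3 in the DKO cells, so the 2 values are not like measures.

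With knockdown of ZFX more of the mitochondrial ribosomal protein genes rose than fell, and among the called genes the largest changes were falls. Of the 79 genes, 20 rose and 7 fell, where 13.8% of all genes tested rose and 17.1% fell (30.9% either way), and their median log2 change was 0.14 against 0.02 over all genes. Of the large subunit 11 of 49 rose and 4 fell (median 0.11), and of the small subunit 9 of 30 rose and 3 fell (median 0.19). The CPM of the 3 siZFX libraries lay wholly above those of the 3 siControl libraries in 34 genes and wholly below in 11, against 25.4% and 26.4% of all genes tested. In bulk libraries, fewer cells of a kind and less RNA per cell cannot be told apart.

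MRPS26 (ENSG00000125901.5, chr20:3045945-3048254, GENCODE 29 on GRCh38, as for the other positions), a small-subunit protein specific to mitochondrial ribosomes, had 95.6, 97.5 and 88.3 CPM in the siControl libraries and 60.3, 56.7 and 55.1 with siZFX. The groups did not overlap, and the 3 siZFX libraries lay close together (-0.71 on the log2 scale with an SE of 0.12, adjusted p = 0.000179). MRPL37 (ENSG00000116221.15, chr1:54184041-54225464), another protein specific to these ribosomes, had 163, 172 and 158 CPM in siControl and 116, 117 and 115 with siZFX (-0.50 on the log2 scale with an SE of 0.06, adjusted p = 2.34e-06). Every siZFX library was lower than every control library. MRPL45, whose protein lies by the exit tunnel next to the membrane, went from 45 ± 4.98 to 31.6 ± 1.37 CPM (-0.51 on the log2 scale with an SE of 0.10, adjusted p = 0.000249). Reads of its pseudogenes amounted to 17.9% of its own reads, so some of its reads may have been divided among the copies. MRPS2, which shares 14.4% of its exon bases, fell from 22.8 ± 2.07 to 16.2 ± 0.877 CPM (log2 change -0.49, adjusted p = 0.0102). Without siControl replicate 3 it was not called (log2 change -0.41, adjusted p = 0.0549). MRPL53 had the largest fall in log2 terms (-0.82) at only 4.22 ± 0.264 and 2.39 ± 0.379 CPM. It shares 45.2% of its exon bases, and the call was lost without siControl replicate 3 (-0.77, adjusted p = 0.0504) or siZFX replicate 2 (-0.71, adjusted p = 0.0743).

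Among the genes that rose, MRPL54 (ENSG00000183617.4, chr19:3762664-3768575) had 19.3, 21.2 and 18.6 CPM in siControl and 33.4, 30.6 and 28.1 with siZFX (0.64 on the log2 scale with an SE of 0.11, adjusted p = 7.25e-05). MRPS18B (ENSG00000204568.11, chr6:30617709-30626395), 1 of the 3 human relatives of bacterial protein S18, had 59.3, 59.2 and 55.7 CPM in siControl and 86.6, 79.2 and 83.4 with siZFX (0.52 on the log2 scale with an SE of 0.07, adjusted p = 9.18e-06). For both genes the lowest siZFX library was above the highest control. The small-subunit gene MRPS33 went from 26.1 ± 1.32 to 39.4 ± 1.4 CPM (0.59 on the log2 scale with an SE of 0.11, adjusted p = 0.000205). MRPL44, whose protein has a ribonuclease III fold, went from 32.6 ± 2.68 to 45.7 ± 1.85 CPM (log2 change 0.49, adjusted p = 0.00113). MRPL42 rose from 53.9 ± 3.94 to 74.4 ± 3.57 CPM (log2 change 0.46, adjusted p = 0.000359). DAP3, a GTP-binding protein of the small subunit, rose less, from 164 ± 5.08 to 192 ± 0.602 CPM (log2 change 0.23, adjusted p = 0.0127). MRPS30 and MRPS18A, of the large subunit by position, were not called (log2 changes 0.15 and -0.12). Counting called genes alone, 20 rises became 13 without siControl replicate 3. A fit of these groups alone gave 32 rises and 13 falls, where 3775 and 4224 of all genes rose and fell. At a fold of at least 1.5 there were 2 rises and 2 falls, with no count over all genes beside them.

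**Figure D1:**
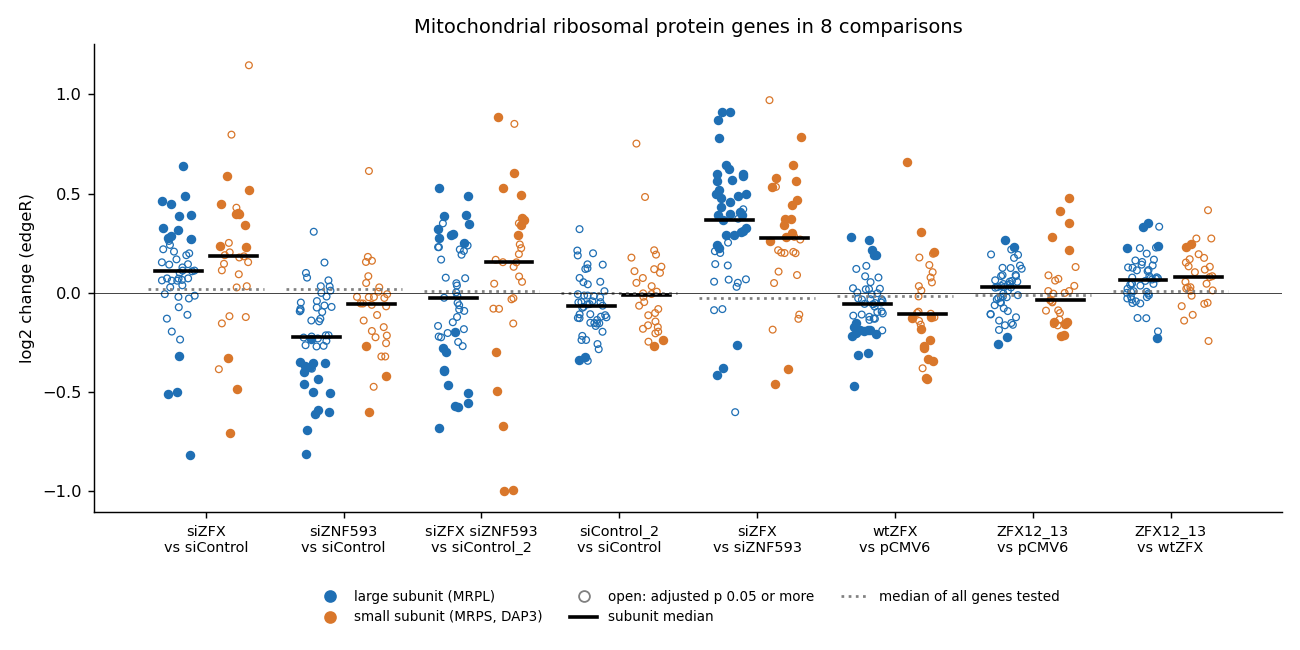
The log2 change of each gene (y axis) in the 8 comparisons (x axis), large subunit in blue and small subunit in orange, filled where the edgeR adjusted p is under 0.05; black bars are subunit medians and dotted lines the median of all genes tested. The points lie mostly above 0 for siZFX and mostly below 0 for siZNF593, where the large-subunit median is -0.22 and the small-subunit median -0.06.

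With knockdown of ZNF593 the called genes were falls, apart from 1 or 2 rises under 2 of the alternatives. With siZNF593 0 genes rose and 19 fell by edgeR, where 12.2% of all genes tested rose and 14.6% fell (26.8% either way). CPM ranges were apart in 1 gene that was higher and 33 that were lower, against 22.1% and 22.7% of all genes. At an unadjusted p under 0.05 there were 0 rises and 31 falls, and DESeq2 gave 0 rises and 21 falls. GC and length offsets gave 2 rises and 25 falls, and a fit of the compared groups alone 1 and 33. Over all genes tested (17684 by edgeR), rises and falls were 3170 and 3387 at that unadjusted p and 2121 and 2719 by DESeq2. They were 3028 and 3032 with the offsets, and 2973 and 3315 with the compared groups alone. The median log2 change was -0.14 against 0.02 over all genes. The falls were mostly of the large subunit, 16 of 49 (median -0.22), with 3 of 30 of the small subunit (median -0.06). Among the 39 genes that share under 1% of their exon bases, 9 of 27 large-subunit genes and 0 of 12 small-subunit genes fell, and the difference between the subunit medians was -0.07 in place of -0.16.

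MRPL58 (ENSG00000167862.9, chr17:75012670-75021261), a peptidyl-tRNA hydrolase built into the large subunit that frees stalled chains, had 35.4, 40.3 and 35 CPM in siControl and 19.5, 23.2 and 20.4 with siZNF593 (-0.81 on the log2 scale with an SE of 0.11, adjusted p = 4.25e-06). It fell to 56.9% of the control level, and the highest siZNF593 library was below the lowest control. MRPL19 had 46.7, 50.1 and 46.8 CPM in siControl and 26.8, 34.9 and 27.1 with siZNF593 (-0.69 on the log2 scale with an SE of 0.11, adjusted p = 5.69e-05). MRPL21 had 51.7, 48.6 and 46.6 CPM in siControl and 37.1, 34.8 and 24 with siZNF593 (-0.61 on the log2 scale with an SE of 0.11, adjusted p = 0.00023). The groups did not overlap for either gene, though replicate 3 of siZNF593 was lower for MRPL21 and replicate 2 higher for MRPL19. MRPL14, which lies at the face towards the small subunit, went from 37.2 ± 5.0 to 24.5 ± 4.84 CPM (-0.60 on the log2 scale with an SE of 0.12, adjusted p = 0.000464). The largest fall of the small subunit was that of MRPS17, from 9.36 ± 0.458 to 6.16 ± 1.13 CPM (log2 change -0.60, adjusted p = 0.00694), a gene that shares 27% of its exon bases. DAP3 (log2 change -0.05), MRPS30 (-0.19) and MRPS18A (-0.01) were not called.

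Both knockdowns were set against the same siControl libraries, so they were also compared with each other. With siZFX 43 of the 79 genes were higher than with siZNF593 and 5 were lower, where 19.8% and 20.7% of all genes tested were (40.5% either way), and the median difference was 0.31 against -0.03. Ranges of CPM were separate in 51 genes that were higher and 8 that were lower, against 26.9% and 27.7% of all genes. Higher were 30 of 49 large-subunit and 13 of 30 small-subunit genes. The largest differences were in MRPL58, at 39.6 ± 0.614 CPM with siZFX and 21 ± 1.92 with siZNF593 (log2 difference 0.91, adjusted p = 3.7e-07), and MRPL54, at 30.7 ± 2.66 and 16.3 ± 2.06 CPM (log2 difference 0.91, adjusted p = 5.76e-07). MRPL14 (0.87), MRPS17 (0.79) and MRPL21 (0.78) followed on the log2 scale. MRPS30 was higher with siZFX as well (log2 difference 0.34, adjusted p = 0.00147), as was DAP3 (0.28, adjusted p = 0.00185).

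The 5 genes lower with siZFX than with siZNF593 were MRPS2, MRPL45, MRPS26, MRPL36 and MRPL37, with log2 differences of -0.46 to -0.27. MRPL37 had 144, 141 and 133 CPM with siZNF593, between its siControl and siZFX values. MRPS26 had 86.1, 70.2 and 68.7 CPM with siZNF593, the first of these close to the controls. Its difference was not called without siZFX replicate 3 (-0.35, adjusted p = 0.0529) or siZNF593 replicate 1 (-0.28, adjusted p = 0.0893). That of MRPS2 was not called without siZFX replicate 3 (-0.41, adjusted p = 0.0519) or siZNF593 replicate 2 (-0.41, adjusted p = 0.0505). The count of lower genes was 3 without siZFX replicate 3.

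In the combined knockdown the genes moved both ways in nearly equal number. Against siControl_2, 18 rose and 16 fell, where 17.6% of all genes tested rose and 20.6% fell (38.2% either way), with a median of 0.05 against 0.01. The large subunit had 10 rises and 11 falls (median -0.03) and the small subunit 8 rises and 5 falls (median 0.15). The difference between the subunit medians, -0.18, was -0.05 with GC and length offsets and -0.30 against siControl. Separate ranges were found for 24 genes that were higher and 15 that were lower, against 21.4% and 24.2% of all genes. Without siControl_2 replicate 1 the falls numbered 7, and without replicate 3 of the combined knockdown there were 18 rises and 15 falls. Upper-quartile factors gave 27 rises and 14 falls, GC and length offsets 23 and 12, and a fit of these groups alone 11 and 7. Over all genes rises made up 54.8%, 53.6% and 47.4% of the calls in the same order, and 46.2% in the main fit.

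MRPS26 had 89.6, 83.3 and 71.1 CPM in siControl_2 and 46.1, 44.8 and 31.3 in the combined knockdown (-1.0 on the log2 scale with an SE of 0.13, adjusted p = 4.24e-06), a fall to 50.1% of the control. Each combined-knockdown library was lower than each control, replicate 3 the lowest. Over 17 alternatives the log2 change of MRPS26 ranged from -1.20 to -0.56 and kept its call. MRPL37 had 181, 165 and 173 CPM in siControl_2 and 126, 123 and 117 in the combined knockdown (-0.50 on the log2 scale with an SE of 0.06, adjusted p = 1.77e-06). MRPL22, whose protein lines the exit tunnel, went from 34.8 ± 3.05 to 23.4 ± 0.544 CPM (-0.58 on the log2 scale with an SE of 0.10, adjusted p = 9.47e-05). Falls in 3 other genes were largest in replicate 3 of the combined knockdown. MRPS12, at the decoding centre, had 27.6, 29.6 and 12.4 CPM there against 54.4, 39.1 and 45.5 in siControl_2 (-1.0 on the log2 scale with an SE of 0.24, adjusted p = 0.00619), and -0.69, adjusted p = 2.13e-07 without that replicate. MRPS34 had 95.1, 106 and 44.5 CPM against 138, 128 and 126 in siControl_2 (-0.67 on the log2 scale with an SE of 0.24, adjusted p = 0.044), and -0.37, adjusted p = 5.26e-05 without it. MRPL24, whose protein lies at the exit tunnel, had 71.1, 66 and 30.7 CPM against 100.3, 87.1 and 81.6 (-0.68 on the log2 scale with an SE of 0.24, adjusted p = 0.043), and -0.38, adjusted p = 0.000285 without it. In all 3 genes replicates 1 and 2 were also below every control library, but far less so. Over 17 alternatives the log2 change of MRPS34 ranged from -0.89 to -0.27. The calls of MRPS34 and MRPL24 were lost without any 1 of the siControl_2 libraries: for MRPS34 the adjusted p was 0.107, 0.0728 and 0.0742 without replicates 1, 2 and 3, and for MRPL24 it was 0.126, 0.0692 and 0.0565. Against siControl in place of siControl_2, MRPS34 kept its call (log2 change -0.76, adjusted p = 0.0246) and MRPL24 did not (-0.63, adjusted p = 0.0555).

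MRPS6 (ENSG00000243927.5, chr21:34073224-34143034) rose most in the combined knockdown. It had 84.6, 81.6 and 91.3 CPM in siControl_2 and 148, 144 and 185 in the combined knockdown (0.89 on the log2 scale with an SE of 0.08, adjusted p = 1.71e-08), without overlap and highest in replicate 3; it shares 9.61% of its exon bases. MRPS6 was lower in siControl_2 than in siControl, and its change against siControl was smaller (log2 change 0.62, adjusted p = 2.34e-06). MRPS9 went from 16.8 ± 3.23 to 25.4 ± 0.887 CPM (0.60 on the log2 scale with an SE of 0.12, adjusted p = 0.000377). MRPS14 rose from 42 ± 2.53 to 60.5 ± 10.2 CPM (log2 change 0.53), MRPL44 from 31.6 ± 1.05 to 45.4 ± 6.86 (0.53) and MRPS10 from 42.9 ± 3.64 to 60.4 ± 8.74 (0.49). DAP3 rose as well, from 157 ± 2.35 to 202 ± 19.1 CPM (log2 change 0.36, adjusted p = 0.000178), while MRPS30 (-0.03) and MRPS18A (0.15) were not called. MRPL58, the gene that fell most with siZNF593, had 30.2, 31.4 and 37.1 CPM against 43.3, 34 and 37.6 in siControl_2 and was not called (log2 change -0.22, adjusted p = 0.103).

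The siZFX and combined-knockdown comparisons use different control libraries. Of the 20 genes that rose with siZFX, 10 also rose in the combined knockdown (10 of its 18), namely DAP3, MRPL10, MRPL2, MRPL35, MRPL42, MRPL44, MRPL50, MRPS18B, MRPS21 and MRPS9, and 1, MRPL51, fell. Of the 7 that fell with siZFX, 5 also fell (5 of its 16): MRPL36, MRPL37, MRPS15, MRPS2 and MRPS26. Over all genes the corresponding shares were 49.1% of those that rose with siZFX and 57.9% of those that fell. Of the 19 that fell with siZNF593, 7 fell in the combined knockdown (7 of its 16; 56.7% over all genes) and 1, MRPL16, rose. That rise was called against siControl_2 but not against siControl (log2 change -0.05, adjusted p = 0.731). Whether 18 and 16 calls differ from those of the single knockdowns was not tested.

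The 2 sets of control libraries were also compared with each other. Between siControl_2 and siControl, 0 genes were higher and 4 lower by edgeR, where 5.43% and 4.88% of all genes tested were (10.3% either way). At an unadjusted p under 0.05 there were 2 and 9, against 2011 and 2002 of all 17684 genes. DESeq2 gave 1 and 5 (1113 and 975 over all genes). GC and length offsets gave 0 and 10 (1541 and 1684), and a fit of these groups alone 2 and 10 (1831 and 1869). CPM ranges were apart in 2 genes that were higher and 15 that were lower, against 16.5% and 17.3% of all genes. The 4 were MRPL16 (log2 change -0.34), MRPL33 (-0.33), MRPS6 (-0.27) and MRPS18B (-0.24), with adjusted p from 0.0206 to 0.0436. Counted over the 79 genes, 0 were lower without siControl replicate 2, siControl replicate 3, siControl_2 replicate 1 or siControl_2 replicate 2, 1 was lower without siControl replicate 1 (MRPL16, the only 1 of the 4 to keep its call there), and 1 was higher without siControl_2 replicate 2. Of the genes called in the combined knockdown, 14 rises and 12 falls were also called against siControl, and 4 of each were not.

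**Figure D2:**
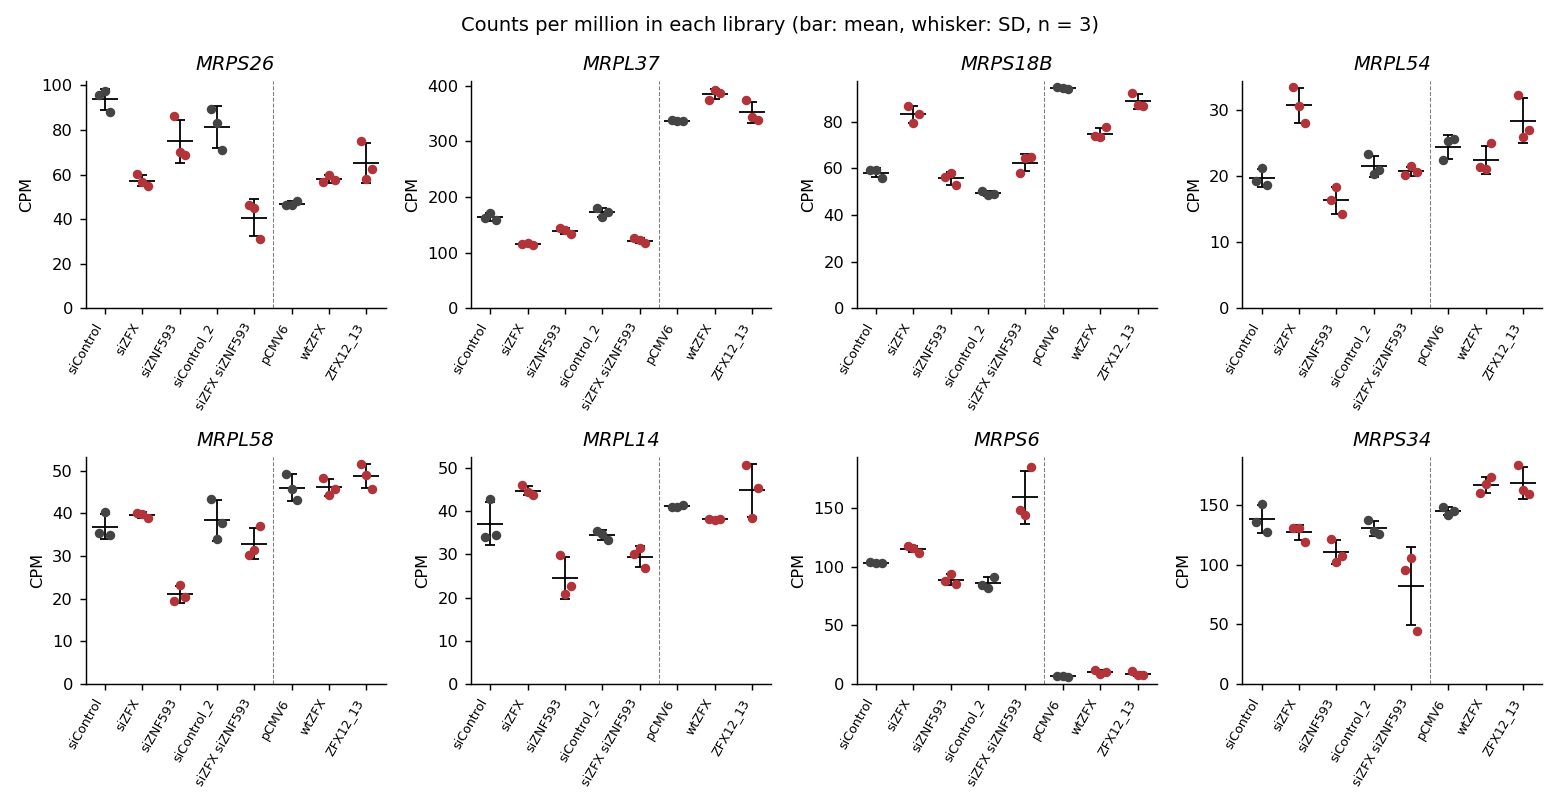
CPM in each library (points) with the group mean and SD (bar and whisker, n = 3) for 8 genes; control siRNA and vector groups are grey, treated groups red, and a dashed line parts LN-229 from the DKO cells. MRPS26 and MRPL37 are low with siZFX and in the combined knockdown, MRPL58 is low with siZNF593, and replicate 3 of the combined knockdown stands apart for MRPS34 and MRPS6.

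With expression of wild-type ZFX in the DKO cells more of the genes fell than rose. With wtZFX 8 of 78 rose and 22 fell relative to pCMV6, where 23.2% of all genes tested rose and 19.2% fell (42.3% either way), with a median log2 change of -0.08 against -0.02. The large subunit had 5 rises and 12 falls of 49 and the small subunit 3 rises and 10 falls of 29. No overlap of CPM was seen in 13 genes that were higher and 32 that were lower, against 28.4% and 27.3% of all genes. Changes were small: 1 gene passed a fold of 1.5, with no count over all genes beside it. The count of falls was 12 by DESeq2, and it was 14, 12, 13 and 12 without wtZFX replicate 1, wtZFX replicate 2, pCMV6 replicate 1 and pCMV6 replicate 2; the count of rises was 5 without wtZFX replicate 3. The rises made up 26.7% of the calls, and 40% by DESeq2, 15.6% with GC and length offsets and 36.8% with only these groups fitted. Over all genes rises made up 54.7%, 59.5%, 42.3% and 52.7% of the calls in the same order.

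MRPS18B had 95, 94.5 and 93.8 CPM in pCMV6 and 73.8, 73.4 and 77.5 with wtZFX (-0.33 on the log2 scale with an SE of 0.05, adjusted p = 9.46e-06). The lowest pCMV6 library lay well above the highest wtZFX library. MRPS31 had 40.5, 38.3 and 36.6 CPM in pCMV6 and 31.5, 29.4 and 30.1 with wtZFX (-0.34 on the log2 scale with an SE of 0.08, adjusted p = 0.000701), again without overlap; its pseudogenes held 7.98% as many reads as the gene. The other leading falls were in genes at low counts that share exon bases: MRPL46 (6.84 ± 0.303 to 4.91 ± 0.531 CPM, log2 change -0.47, sharing 11.3%), MRPS18C (3.72 ± 0.393 to 2.74 ± 0.309 CPM, -0.44, sharing 40.2%) and MRPS17 (7.9 ± 0.577 to 5.84 ± 0.402 CPM, -0.43). The call of MRPS18C was lost under 7 of 15 alternatives, among them DESeq2 (-0.43, adjusted p = 0.137) and leaving out wtZFX replicate 1 (-0.37, adjusted p = 0.134), wtZFX replicate 2 (-0.41, adjusted p = 0.0894), pCMV6 replicate 1 (-0.41, adjusted p = 0.0989) or pCMV6 replicate 2 (-0.38, adjusted p = 0.13). That of MRPS17 was lost without wtZFX replicate 1 (-0.40, adjusted p = 0.0517) or pCMV6 replicate 2 (-0.37, adjusted p = 0.0668). DAP3 fell from 140.3 ± 3.56 to 128 ± 3.54 CPM (log2 change -0.13, adjusted p = 0.0451).

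MRPS26 had 46.3, 46.3 and 48.2 CPM in pCMV6 and 56.7, 59.8 and 57.5 with wtZFX (0.31 on the log2 scale with an SE of 0.07, adjusted p = 0.00124). All wtZFX libraries were higher, but with offsets for GC content and length the change was near 0 (log2 change 0.04, adjusted p = 0.642). MRPS6, at its low level in these cells, had 6.7, 6.71 and 6.21 CPM in pCMV6 and 12.3, 8.32 and 10.3 with wtZFX (0.66 on the log2 scale with an SE of 0.14, adjusted p = 0.000582). MRPL37 rose from 338 ± 0.565 to 385 ± 9.25 CPM (log2 change 0.19, adjusted p = 0.00239). Rises of MRPL4 (log2 change 0.28, sharing 21.4%) and MRPL36 (0.27) turned into values of -0.18, adjusted p = 0.0313 and -0.09, adjusted p = 0.409 with GC and length offsets. MRPL36 was also not called without pCMV6 replicate 2 (0.24, adjusted p = 0.0832), pCMV6 replicate 3 (0.21, adjusted p = 0.103) or wtZFX replicate 3 (0.26, adjusted p = 0.0639). MRPL24 rose from 44.9 ± 1.61 to 52.1 ± 2.03 CPM (log2 change 0.21, adjusted p = 0.0295). It was not called with GC and length offsets (0.14, adjusted p = 0.104), upper-quartile factors (0.18, adjusted p = 0.0528), or without wtZFX replicate 2 (0.19, adjusted p = 0.0901), wtZFX replicate 3 (0.22, adjusted p = 0.0615), pCMV6 replicate 1 (0.22, adjusted p = 0.0755) or pCMV6 replicate 3 (0.19, adjusted p = 0.107).

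With ZFX12_13, whose ZFX counts did not differ from those of wtZFX by the test (0.28 on the log2 scale with an SE of 0.11, adjusted p = 0.123), 7 genes rose and 7 fell relative to pCMV6, where 20.9% of all genes tested rose and 15.7% fell (36.6% either way); the median was 0.00 against -0.01. Ranges of CPM were separate in 10 genes that were higher and 12 that were lower, against 24.2% and 21.8% of all genes. MRPS26 had 75, 58.1 and 62.5 CPM with ZFX12_13 (0.48 on the log2 scale with an SE of 0.07, adjusted p = 1.14e-05), replicate 1 the highest and all above pCMV6. Over 15 alternatives this log2 change ranged from 0.21 to 0.55 and kept its call. MRPS2 rose from 30.1 ± 2.51 to 38.5 ± 3.65 CPM (log2 change 0.35), or 0.07, adjusted p = 0.449 with GC and length offsets. MRPS6 (log2 change 0.41), MRPS18A (0.28) and MRPL36 (0.26) rose too, and each call rested on several libraries. MRPS6 and MRPS18A were not called without ZFX12_13 replicate 1 (adjusted p = 0.213 and 0.161) or without any 1 pCMV6 library (0.0679 to 0.104 for MRPS6, 0.0515 to 0.0639 for MRPS18A). MRPS18A was also not called with GC and length offsets (log2 change 0.17, adjusted p = 0.136), nor MRPS6 by DESeq2 (0.0674). MRPL36 was not called without ZFX12_13 replicate 1 (adjusted p = 0.222), pCMV6 replicate 2 (0.106) or pCMV6 replicate 3 (0.138), by DESeq2 (0.06) or with these groups alone fitted (0.0522), and its value was -0.08, adjusted p = 0.469 with GC and length offsets. MRPL17 fell from 57.6 ± 2.13 to 48.2 ± 3.9 CPM (-0.26 on the log2 scale with an SE of 0.07, adjusted p = 0.00431) and MRPL10, at the base of the ribosomal stalk, from 84.4 ± 4.4 to 72.2 ± 4.48 CPM (log2 change -0.23, adjusted p = 0.00307). MRPS11 (-0.22), MRPS31 (-0.21) and MRPS30 (-0.16) fell by less, and each lost its call without ZFX12_13 replicate 3 (adjusted p = 0.109, 0.183 and 0.0577) or pCMV6 libraries: replicates 1 (0.0515) and 3 (0.171) for MRPS11, replicates 1 (0.152) and 2 (0.0765) for MRPS31, and replicate 3 (0.159) for MRPS30. MRPS31 was also not called without ZFX12_13 replicate 2 (adjusted p = 0.0804), by DESeq2 (0.0697) or with these groups alone fitted (0.0565), nor MRPS11 by DESeq2 (0.067). With GC and length offsets MRPS31 (log2 change -0.13, adjusted p = 0.109) and MRPS30 (-0.09, adjusted p = 0.196) were not called. DAP3 was not called (log2 change -0.05). Leaving out ZFX12_13 replicates 1, 2 and 3 in turn gave 3 rises and 16 falls, 12 and 4, and 11 and 3; leaving out pCMV6 replicates 1, 2 and 3 gave 4 and 4, 3 and 4, and 3 and 3. Upper-quartile factors gave 7 rises and 11 falls, and GC and length offsets 7 and 19. Over all genes rises made up 51.7% and 41.5% of the calls under these settings, and 57.1% in the main fit.

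Against wtZFX itself, 6 genes were higher with ZFX12_13 and 1 was lower, where 9.73% and 10.6% of all genes tested were (20.4% either way). CPM ranges were apart in 15 genes that were higher and 3 that were lower, against 15.6% and 16.5% of all genes. MRPS18B had 92.3, 87.1 and 86.7 CPM with ZFX12_13, above each wtZFX value given before (0.24 on the log2 scale with an SE of 0.05, adjusted p = 0.00118). MRPL48 went from 31.8 ± 0.403 CPM with wtZFX to 40.6 ± 6.37 with ZFX12_13 (log2 difference 0.35, adjusted p = 0.00254), its libraries at 47.9, 37.7 and 36.1 CPM. MRPL54 (log2 difference 0.33), MRPL14 (0.24) and MRPS14 (0.23) were higher and MRPL32 lower (-0.23). The call of MRPL54 was lost without wtZFX replicate 1 (adjusted p = 0.0537) or 2 (0.0578), that of MRPS14 without wtZFX replicate 1 (0.052) or 3 (0.0797), and that of MRPL32 without any 1 wtZFX library (0.0571 to 0.07) or ZFX12_13 replicate 3 (0.145). With 1 library left out, MRPL14 was called only without ZFX12_13 replicate 2 (adjusted p up to 0.145 without the others). With only these groups fitted, MRPL14 (adjusted p = 0.0678) and MRPL32 (0.0591) were not called. DAP3 (0.08), MRPS30 (-0.06) and MRPS18A (0.08) were not called. The count of higher genes was 3 without any 1 wtZFX library and 14 without ZFX12_13 replicate 3. The count of lower genes was 0 without any 1 wtZFX library or ZFX12_13 replicate 3, 6 without ZFX12_13 replicate 1, and 2 with RLE factors.

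ZFX knockdown in LN-229 and ZFX expression in the DKO cells share no library and could be set side by side gene by gene. Of the 78 genes tested in both, 60 (76.9%) had log2 changes of opposite sign, against 63.5% of the 15973 genes tested in both lines. The changes correlated at r = -0.57 (Spearman -0.66) across these genes and at -0.31 (Spearman -0.34) across all; genes are not independent replicates and no p is given. Of the 20 genes that rose with siZFX, 12 fell with wtZFX (12 of its 22) and 0 rose: DAP3, MRPL10, MRPL2, MRPL35, MRPL42, MRPL44, MRPL50, MRPS18B, MRPS21, MRPS27, MRPS31 and MRPS5. Of the 7 that fell with siZFX, 3 rose with wtZFX (3 of its 8) and 0 fell: MRPL36, MRPL37 and MRPS26. Over all genes, 42.9% of those that rose with siZFX fell with wtZFX and 12.1% rose, and 49.2% of those that fell rose and 9.89% fell. MRPS18B and MRPS31 had the largest opposite pairs among the 12, with 0.52 and -0.33 for MRPS18B and 0.40 and -0.34 for MRPS31. MRPL35 had 0.33 and -0.32, MRPS21 0.40 and -0.28, and MRPS5 0.34 and -0.24, on the log2 scale. MRPL2 (0.45 and -0.19), MRPL50 (0.29 and -0.22), MRPL10 (0.39 and -0.21) and MRPS27 (0.24 and -0.12) complete the list with the genes described above.

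**Figure D3:**
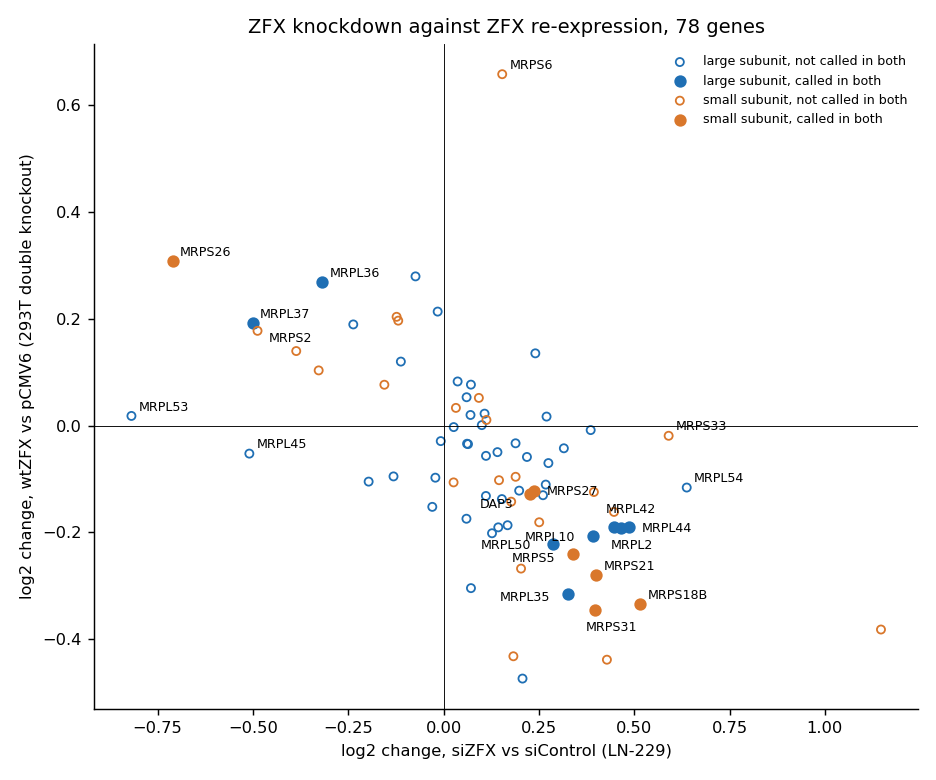
The log2 change with siZFX in LN-229 (x axis) against that with wtZFX in the DKO cells (y axis) for 78 genes, large subunit in blue and small subunit in orange, filled where both were called. The 15 filled points lie in the upper left (3 genes) and lower right (12 genes).

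Summed over the genes, the large subunit had 2368 ± 128 CPM and the small subunit 1615 ± 61.9 in siControl. With siZNF593 the sums were 2043 ± 108 and 1465 ± 47.5, with siZFX 2505 ± 86.4 and 1734 ± 29.6, and in the combined knockdown 2223 ± 47.3 and 1649.8 ± 41.6 beside 2303 ± 140.3 and 1558 ± 78.7 in siControl_2. The ratio of large to small was 1.47 ± 0.0236 in siControl and 1.48 ± 0.0151 in siControl_2, with libraries from 1.45 to 1.49. It was lower in all 3 siZNF593 libraries (1.36 to 1.41, mean 1.39 ± 0.0291) and in all 3 of the combined knockdown (1.31 to 1.37, mean 1.35 ± 0.0301), while the siZFX libraries (1.41 to 1.46, mean 1.44 ± 0.0271) overlapped the controls. In the DKO cells the ratio was 1.52 ± 0.0212 in pCMV6, 1.54 ± 0.00219 with wtZFX and 1.52 ± 0.0302 with ZFX12_13, with overlapping ranges. Moving MRPS30 and MRPS18A to the large subunit, where their proteins sit, raised each ratio by a similar amount (1.58 in siControl, 1.51 with siZNF593, 1.47 in the combined knockdown). With the median over genes in place of the sum, the ratio was 0.774 to 0.834 in the siZNF593 libraries, below all 6 control libraries, but 0.817, 0.846 and 0.971 in replicates 1 to 3 of the combined knockdown, where replicate 3 lay above every siControl_2 library (0.910 to 0.946). Sums weigh abundant genes most, and no test was made of either ratio.

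**Figure D4:**
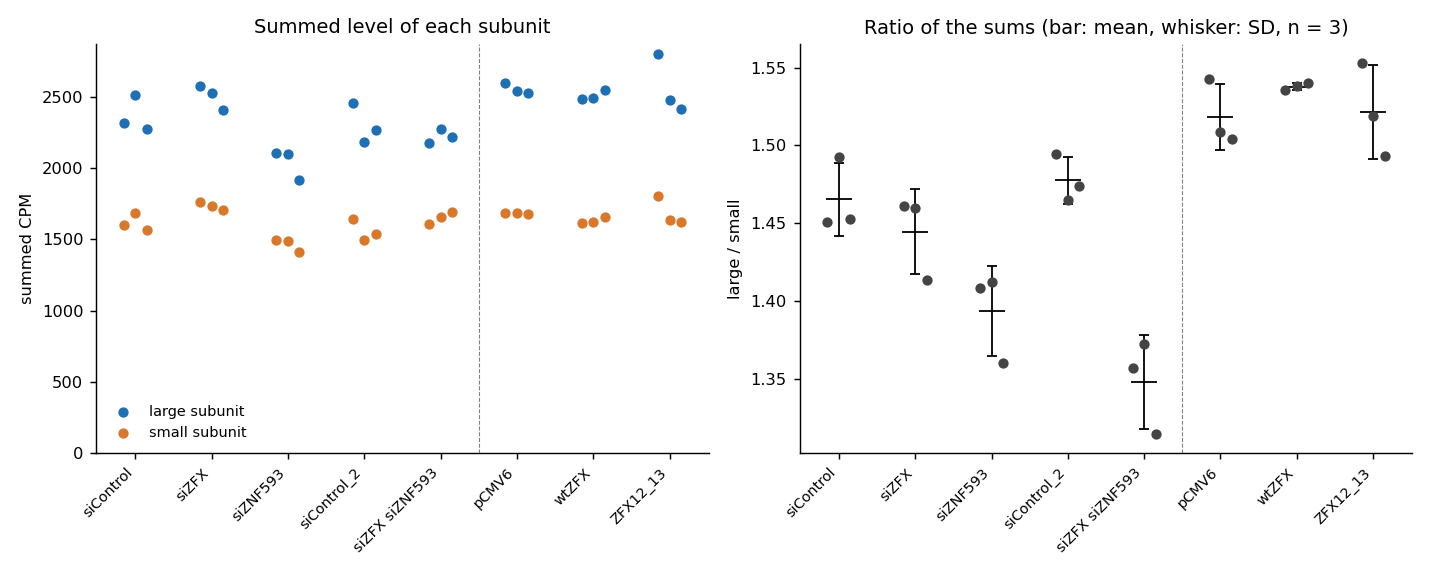
Left, CPM summed over the large-subunit (blue) and small-subunit (orange) genes in each library; right, the ratio of the sums in each library (points) with group mean and SD (bar and whisker, n = 3), on an axis that does not start at 0. The siZNF593 and combined-knockdown libraries lie between 1.31 and 1.41, under both control siRNA groups.

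Other genes of the mitochondrial translation system were read from 5 lists, beside which the shares of all genes that rose and fell were 13.8% and 17.1% with siZFX, 12.2% and 14.6% with siZNF593, 17.6% and 20.6% in the combined knockdown, 23.2% and 19.2% with wtZFX, and 20.9% and 15.7% with ZFX12_13 against pCMV6. Of 4 ribosomal protein genes with other names, CHCHD1 rose with siZFX (0.35 on the log2 scale with an SE of 0.11, adjusted p = 0.0204), GADD45GIP1 fell in the combined knockdown (-0.58 on the log2 scale with an SE of 0.10, adjusted p = 8.26e-05) and 0 of 4 were called with siZNF593 (edgeR; 0 at an unadjusted p under 0.05). With wtZFX GADD45GIP1 (0.20) and AURKAIP1 (0.19) rose and PTCD3 fell (-0.16), and both of the first rose with ZFX12_13. Of 27 assembly and rRNA modification genes, 6 rose and 7 fell with siZFX, 0 rose and 6 fell with siZNF593, 6 rose and 7 fell in the combined knockdown, 4 rose and 11 fell with wtZFX, and 1 rose and 8 fell with ZFX12_13. MTERF3, needed for assembly of the large subunit, went from 23.3 ± 1.4 to 11.7 ± 1.13 CPM with siZFX (-1.0 on the log2 scale with an SE of 0.12, adjusted p = 8.17e-07) and from 13.9 ± 0.434 to 18.8 ± 0.201 CPM with wtZFX (log2 change 0.43). MALSU1, which binds the immature large subunit, fell with siZFX (log2 change -0.56), siZNF593 (-0.44) and in the combined knockdown (-0.73). METTL15, which methylates the small-subunit rRNA, rose from 16.5 ± 0.761 to 27.6 ± 0.792 CPM with siZFX (log2 change 0.75). NSUN4, a methyltransferase of small-subunit assembly, fell with wtZFX (-0.52) and with ZFX12_13 (-0.36).

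Of 15 translation factor genes, 3 rose and 1 fell with siZFX, 2 rose and 1 fell with siZNF593, 7 rose and 1 fell in the combined knockdown, 2 rose and 5 fell with wtZFX, and 2 rose and 6 fell with ZFX12_13. The gene of the formyltransferase MTFMT fell with siZFX (14.4 ± 0.683 to 7.69 ± 0.909 CPM, log2 change -0.90) and in the combined knockdown (-0.70) and rose with wtZFX (0.44) and ZFX12_13 (0.33). The elongation factor gene GFM1 fell with siZNF593 (78.6 ± 2.0 to 56.6 ± 4.48 CPM, log2 change -0.47). The release factor gene MTRF1 rose in the combined knockdown (0.88) and fell with wtZFX (-0.46). Of 15 mitochondrial transcription and nuclear regulator genes, 4 rose and 4 fell with siZFX, 0 rose and 3 fell with siZNF593, and 4 rose and 3 fell in the combined knockdown. Among them NRF1 fell with siZFX (26.6 ± 1.94 to 16.5 ± 1.55 CPM, log2 change -0.69) and in the combined knockdown (-0.56), MYC fell with siZNF593 (32.2 ± 1.31 to 19.6 ± 1.13 CPM, -0.72), and MTERF2 fell (-1.05) and TFAM rose (0.41) with siZFX. Of 15 mitochondrially encoded rRNAs and mRNAs, 7 rose and 0 fell with siZFX (edgeR; 11 and 0 at an unadjusted p under 0.05), led by MT-ATP6 (log2 change 0.58), but 5 were also higher and 0 lower in siControl_2 than in siControl (5.43% and 4.88% of all genes). In the combined knockdown 0 rose and 2 fell (0 and 4 at an unadjusted p under 0.05), MT-ND6 (-0.54) and MT-CO2 (-0.44). Here MT-CO2 had been higher in siControl_2 than in siControl by 0.60. At an unadjusted p under 0.05, 3268 and 3687 of 17684 genes rose and fell with siZFX, and 3808 and 4276 in the combined knockdown.

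Promoter letters and changes were set side by side. With siZFX the 30 genes with an ETS motif had a median log2 change of 0.13, as did the 40 without, with 8 rises and 2 falls among the first and 8 rises and 5 falls among the second. The 13 genes with a YY1 motif had a median of 0.21 (4 rises, 1 fall) and the 57 without 0.11; in the combined knockdown the medians were 0.17 and 0.00, and with siZNF593 -0.06 and -0.22. The 10 genes with the ZFX core had a median of 0.11 with siZFX (1 rise, MRPS33, and 1 fall, MRPL53) and the 60 without 0.15; with wtZFX the medians were -0.04 and -0.07. Of the sequences printed above, MRPS26, MRPS34 and MRPL54 each hold an ETS motif near the start, and with siZFX MRPS26 fell, MRPL54 rose and MRPS34 was not called (log2 change -0.12).

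Across the 8 comparisons, 70 of the 79 genes were called at least once, as were 80.1% of the genes tested in both lines. The 9 never called were MRPL15, MRPL28, MRPL34, MRPL38, MRPL57, MRPS23, MRPS24, MRPS28 and MRPS35. MRPL57 and MRPS35 share no exon bases and had log2 changes of -0.01 and 0.09 with siZFX and of 0.08 and -0.11 with siZNF593. MRPS28 and MRPS24 had changes of 1.15 and 0.80 with siZFX that were not called, at means of 0.625 ± 0.218 and 0.801 ± 0.219 CPM in siControl. MRPS28 was called in a setting outside these 8: the combined knockdown was higher than siControl (log2 change 1.33, adjusted p = 0.0201). MRPS18B was called in 6 comparisons, all but siZNF593 against siControl and ZFX12_13 against pCMV6, and no gene in more. Its call between siControl_2 and siControl was lost under 11 of 15 alternatives, among them RLE factors (adjusted p = 0.0509). MRPS26 was called in 5: both ZFX knockdowns, siZFX against siZNF593, wtZFX and ZFX12_13 against pCMV6.

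**Figure D5:**
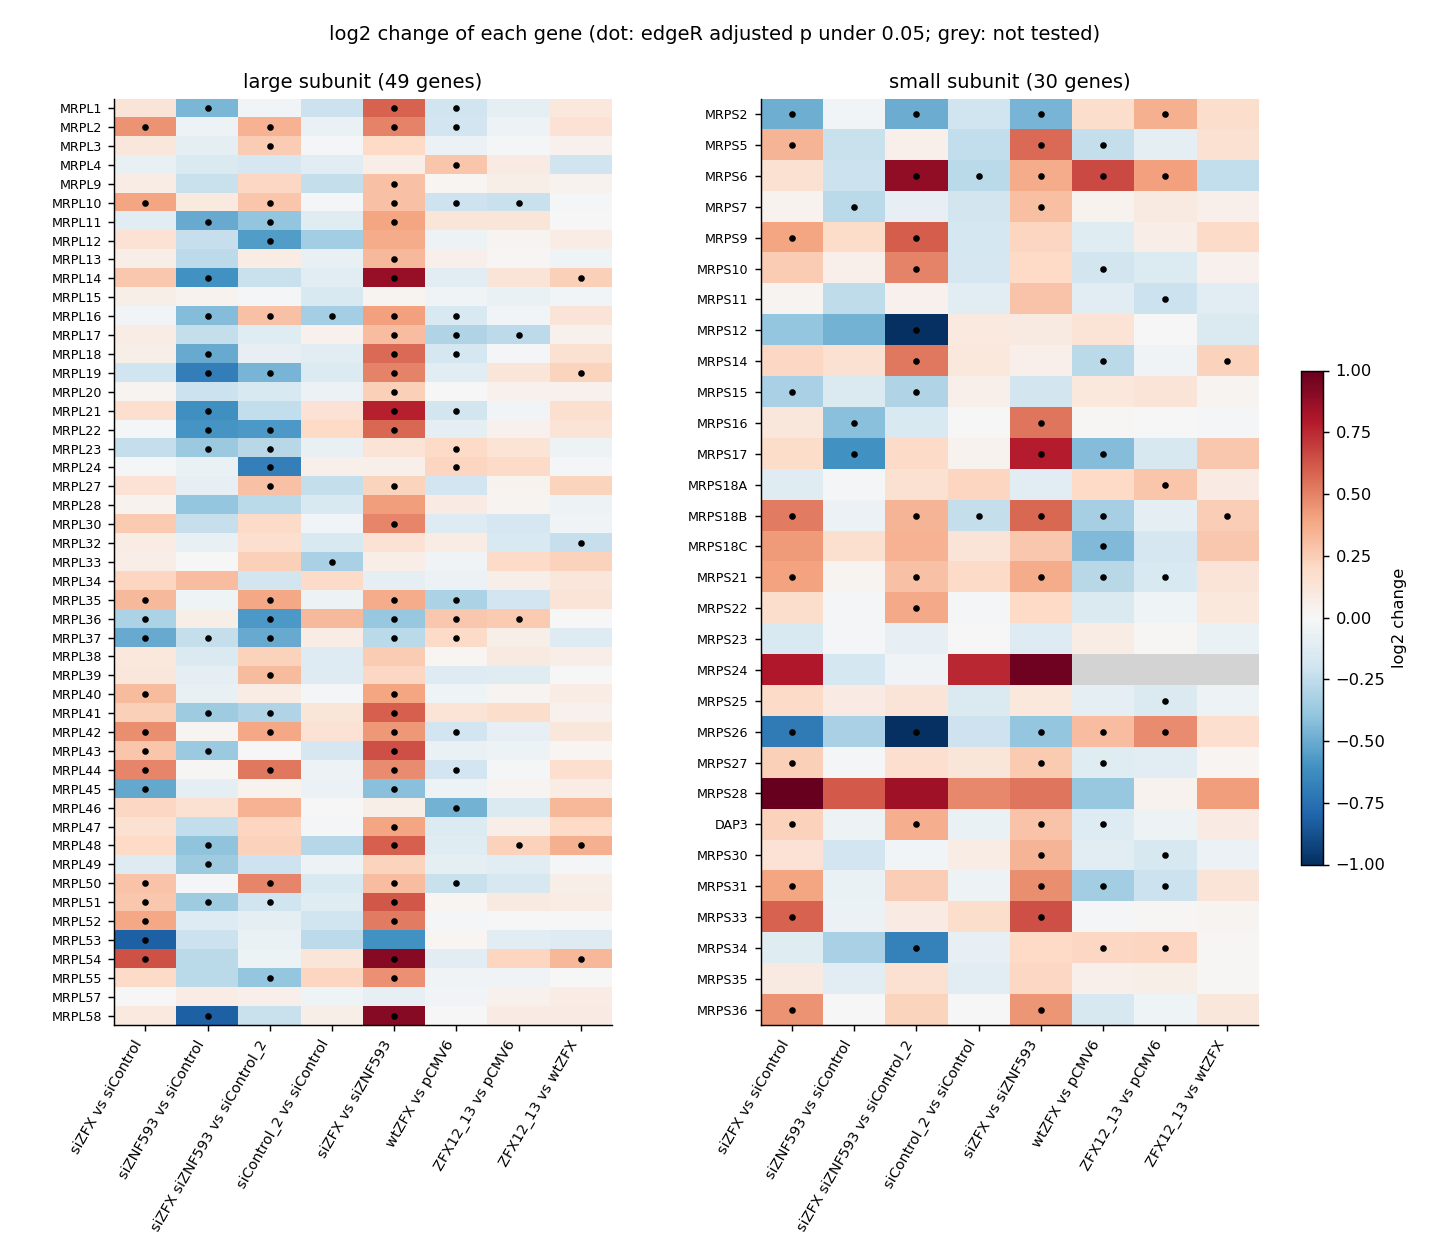
The log2 change of every gene (rows; 49 large-subunit genes left, 30 small-subunit genes right) in the 8 comparisons (columns), on a colour scale cut at -1 and 1, with a dot where the edgeR adjusted p is under 0.05 and grey where a gene was not tested. The siZFX against siZNF593 column holds 43 dots in red cells and 5 in blue, and the siZNF593 column 19 in blue.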

How the data were processed

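The deposited files hold counts of reads per gene for each library, whole numbers with no normalization by the authors, judged from the values; STAR, HTSeq, DESeq2 and GRCh38 are named in the submitters' processing notes, and versions are not given in the sources used here. The layout of the files is that of STAR gene counts, of which the unstranded column was used; the stranded columns held near-equal shares. Rows that name no gene were left out of library sizes; gene rows held 77.6% to 80.5% of reads in LN-229 and 71.03% to 74.8% in the DKO cells. Symbols came from GENCODE 29.

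Libraries were grouped by title and treatment label. Each cell line was fitted on its own over all its libraries with edgeR 4.0.16 (R 4.3.3): TMM factors, filterByExpr, robust quasi-likelihood tests, and Benjamini-Hochberg adjustment over all genes tested, with 0.05 as the threshold. The SE is the log2 change divided by the root of F. CPM were computed over TMM-scaled totals within a line. Genes named were, for each comparison, up to 5 with the largest rise and 5 with the largest fall among the called, with the 5 highest and 5 lowest per kilobase in each line, those under the count filter, those called in opposite directions with siZFX and wtZFX, DAP3, MRPS30 and MRPS18A, and up to 3 called genes of each companion list; others were named after their values were seen. The genes and lists were chosen with earlier results of these data known. Promoter regions came from RefSeq tables on GRCh38.p14. The fit was tested on simulated data. Replicate numbers did not pair the samples. Alternatives were RLE and upper-quartile factors, other count filters, DESeq2 1.42.0, only the compared groups, a replicate block, both strands summed, GC and length offsets (mgcv 1.9.3), single libraries left out, a 1.5-fold minimum, other controls for the combined knockdown, and, added after seeing the data, genes sharing under 1% of exon bases. Depth limits low genes: CPM under about 1 rest on few reads.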

Additional observations from a re-analysis of the deposited data

How the results depend on the processing

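Counts of called genes are given as higher and lower. With only the compared groups fitted, they were 32 and 13 for siZFX, 1 and 33 for siZNF593, 11 and 7 for the combined knockdown, 2 and 10 for siControl_2 against siControl, 14 higher for wtZFX, 4 lower for ZFX12_13 against pCMV6 and 0 lower for ZFX12_13 against wtZFX. With a 1.5-fold minimum they were 2 and 2 for siZFX, 6 lower for siZNF593, 2 and 4 for the combined knockdown, 0 lower for siControl_2, 11 and 0 for siZFX against siZNF593, 1 and 0 for wtZFX, and 0 and 0 for both ZFX12_13 comparisons. All-gene counts at that fold are not given here, so these counts are not set against a background. GC and length offsets gave 2 higher for siZNF593, 10 lower for siControl_2, 5 higher for wtZFX, 19 lower for ZFX12_13 against pCMV6, and 11 and 2 against wtZFX. They turned MRPL36 to -0.0898 with wtZFX and -0.085 with ZFX12_13, and MRPL4 to -0.18 with wtZFX. DESeq2 gave 1 higher for siControl_2, 12 lower for wtZFX, 4 and 3 for ZFX12_13 against pCMV6 and 2 lower against wtZFX. Upper-quartile factors gave 1 and 2 for siControl_2 and 11 lower for ZFX12_13 against pCMV6, and RLE factors 2 lower for ZFX12_13 against wtZFX. Both strands summed gave 2 and 2 for siControl_2 and 2 lower for ZFX12_13 against wtZFX. Either other count filter gave 1 higher for siControl_2. Calls over all genes moved with the setting as well. With GC and length offsets, higher genes made up 41.5% of all calls for ZFX12_13 against pCMV6, in place of 57.1%.

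The large minus small subunit median was -0.18 in the combined knockdown, -0.0477 with GC and length offsets, -0.30 against siControl and -0.31 against all 6 control siRNA libraries. With GC and length offsets it was -0.0183 for ZFX12_13 against pCMV6 (0.06 otherwise). Over genes sharing under 1% of exon bases it was -0.0666 for siZNF593 and -0.0369 for wtZFX (0.05 over all). With MRPS30 and MRPS18A in the large subunit, the ratio of sums was 1.58 in siControl, 1.56 with siZFX, 1.51 with siZNF593, 1.61 in siControl_2, 1.47 in the combined knockdown, 1.67 in pCMV6, 1.69 with wtZFX and 1.66 with ZFX12_13. With medians over genes it was 0.967, 0.914, 0.799, 0.931, 0.878, 0.987, 1.01 and 1.08 in the same order.

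With 1 library left out in turn, higher genes ranged from 13 to 19 for siZFX, 12 to 26 for the combined knockdown, 0 to 1 for siControl_2, 5 to 9 for wtZFX, 3 to 12 for ZFX12_13 against pCMV6 and 3 to 14 against wtZFX. Lower genes ranged from 7 to 16 for the combined knockdown, 0 to 4 for siControl_2, 3 to 6 for siZFX against siZNF593, 12 to 18 for wtZFX, 3 to 16 for ZFX12_13 against pCMV6 and 0 to 6 against wtZFX. Calls over all genes are not given for these fits. The subunit difference of ZFX12_13 against wtZFX ranged from -0.02 to 0.00. Of 65 named changes, 38 kept their call under each of the 15 or 17 alternatives fitted for them, which did not include the 1.5-fold minimum. The causes of these shifts were not tested.

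Same-numbered libraries did not deviate together (the correlations of their deviations lay between -0.09 and 0.10 for LN-229 and between -0.05 and 0.04 for the DKO cells), so the numbers were not taken as a pairing. With a replicate block the counts were 23 and 8 for siZFX, 0 and 22 for siZNF593, 18 and 17 for the combined knockdown, 1 and 3 for siControl_2, 44 and 5 for siZFX against siZNF593, 9 and 20 for wtZFX, 7 and 8 for ZFX12_13 against pCMV6, and 7 and 1 against wtZFX. Over all genes tested the block gave 2448 and 3035 for siZFX, 2119 and 2592 for siZNF593, and 3091 and 3697 for the combined knockdown. It gave 959 and 860 for siControl_2, and 3543 and 3637 for siZFX against siZNF593. In the DKO cells these calls numbered 4481 and 3697 for wtZFX, 4039 and 3068 for ZFX12_13 against pCMV6, and 1865 and 2050 against wtZFX. Few counts stood behind MRPS24 and MRPS28, whose changes have wide errors.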
